A study of Mus musculus with 30 samples.

Results

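The 6 genes followed here belong to the PML nuclear body and the Sp100 family, namely Sp100, Sp110, Sp140, Pml, Daxx and Atrx, and were measured in microglia of mice with 1 or both copies of Bin1 deleted. They were chosen by name among the 47643 genes of the deposited table, because Sp100 was already known to be higher in every Cre-positive group, and the question asked is whether the other 5 genes moved with it. The values that led to the choice of Sp100 are therefore given as a description, without a test, while the other 5 genes were tested. All 6 genes were among the 16897 genes with a mean level high enough to be tested.

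PML nuclear bodies are small, round protein assemblies in the nucleus, built on a scaffold of the PML protein and held together by the small modifier SUMO. SP100 is their other constant resident, and DAXX and ATRX form a chaperone pair that places the histone variant H3.3 on silent chromatin and meets the bodies through DAXX. SP110 and SP140 are relatives of SP100 that share its chromatin-reading domains and are most abundant in immune cells. Several genes of this group are inducible by interferon, and the bodies are known for restraining viral genomes.

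The 30 libraries came from microglia, the resident macrophages of the brain, of mice in 6 groups of both sexes. Homo mice (5 male, 5 female) were Bin1 flox/flox and carried Cx3Cr1-Cre, Het mice (6 male, 5 female) were Bin1 wt/flox and carried Cx3Cr1-Cre, and the third genotype was labelled WT (5 male, 4 female). According to the study, WT mice were Bin1 wt/flox without Cre. Cre is driven from the Cx3cr1 locus, which is active in microglia and other mononuclear phagocytes. Every comparison with WT therefore joins the presence of Cre with the deletion of a Bin1 copy and a lower Cx3cr1 level, and these cannot be told apart. The study describes cells sorted by flow cytometry from adult brains. The growth protocol filed with the samples instead describes cells cultured from newborn pups and given Tau protein, bacterial LPS and ATP. In the study, such cultures were pooled by genotype and served to measure Tau release, whereas the library labels give a sex and a mouse number. By the study's account the libraries are thus from sorted cells, and the values were not used to test this. The study calls the WT mice littermates of the Homo mice, and whether any sorted mice were pooled for a library is not given in the sources used here.

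Values are FPKM, that is, fragments counted relative to transcript length and to the size of each library, which allow levels to be compared between genes per unit of length. Differences are given as log2 fold changes of FPKM + 0.1 after scaling between libraries, a scale that understates changes of low genes, and a gene was called at a Benjamini-Hochberg adjusted p below 0.05 by limma over all genes tested. Absolute depth is unknown from FPKM, and relative depth differed between libraries from 0.669 to 1.41 of the median. Bin1 lay between 230 and 290 FPKM in WT libraries and between 39.5 and 55.6 in Homo libraries. The library labelled Het-F-0206 (42.7) and the library labelled Het-M-0199 (51.8) fell in the Homo range, whereas the other Het libraries lay between 117 and 164, and Het-F-0206 also stood apart with a Cx3cr1 level of 13.9 FPKM. All 9 microglial markers were present, with a summed level from 19136 to 26918 FPKM, and Cd3e and Cd3g of T cells were at 0 in all libraries. Markers of other cells were present at lower summed levels, up to 343 FPKM for the 6 neutrophil markers and 120 for the 4 oligodendrocyte markers. The 4 B cell markers summed to between 16.5 and 38.3 FPKM, but 3 of them stayed below 1 FPKM in every library. The mouse numbers in the labels form an early range (6 libraries, none above WT-F-0122) and a late range (24 libraries, from WT-M-0176). The early range held 3 of the 5 male Homo, 2 of the 6 male Het, 1 of the 4 female WT and 0 of the 5 male WT libraries. The labels do not say what a number stands for beyond the mouse.

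On GRCm38 (mm10), the 3 Sp genes are direct neighbours on chromosome 1. Sp110 (ENSMUSG00000070034) runs on the minus strand from 85576899 to 85598817, Sp140 (ENSMUSG00000070031) on the plus strand from 85600378 to 85645037, and Sp100 (ENSMUSG00000026222) on the plus strand from 85649988 to 85709998. Pml (ENSMUSG00000036986) lies on chromosome 9 from 58218076 to 58249786, Daxx (ENSMUSG00000002307) on chromosome 17 from 33909414 to 33915590, and Atrx (ENSMUSG00000031229) on chromosome X from 105797615 to 105929403. The antisense gene Gm17017 overlaps the start of Sp100 and the end of Sp140, and no source says that fragments were counted by strand, so reads of both strands cannot be told apart there.

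The promoters of Sp100 and Sp110 are shown because these neighbours share a stretch of sequence near their starts, whereas Sp100 was chosen for its rise and Sp110 was not called in any comparison with WT. Both windows are from RefSeq on GRCm38.p6, read 5′ to 3′ on the strand of the gene, from 250 bases before to 50 bases after an annotated start. Sp100 is at chr1:85649738-85650037 (plus strand) and Sp110 at chr1:85598761-85599060 (minus strand), and capitals mark the longest stretch that the Sp100 window shares with any window of the other 5 genes when 1 mismatch is allowed.
Sp100: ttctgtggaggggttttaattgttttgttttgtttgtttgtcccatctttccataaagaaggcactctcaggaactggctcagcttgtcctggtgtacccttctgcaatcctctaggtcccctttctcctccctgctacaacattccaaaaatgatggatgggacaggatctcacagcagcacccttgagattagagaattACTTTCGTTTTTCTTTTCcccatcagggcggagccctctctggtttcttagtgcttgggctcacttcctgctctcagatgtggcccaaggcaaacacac
Sp110: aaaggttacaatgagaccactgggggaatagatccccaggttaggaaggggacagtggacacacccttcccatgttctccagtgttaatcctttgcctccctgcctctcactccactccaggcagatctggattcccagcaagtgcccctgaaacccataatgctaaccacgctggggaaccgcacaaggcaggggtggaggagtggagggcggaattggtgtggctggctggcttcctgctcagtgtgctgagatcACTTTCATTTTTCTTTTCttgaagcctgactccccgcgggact
The stretch is 18 bases long and rich in T, and it spans positions -49 to -32 from the start of Sp100 and 7 to 24 from that of Sp110. Its letters, with N at the base that differs, are ACTTTCNTTTTTCTTTTC. On either strand they occurred in 4 of 32851 promoter windows of the same length (0.0122%), and these windows belong to Sp100, Sp110 and Gm7609, a transcribed pseudogene on the same stretch of chromosome 1. The pattern was taken from the windows themselves, so this count describes them. The motif GAAANNGAAA, the core of the interferon-stimulated response element, had no match in any of the 10 windows of the 6 genes and occurred in 3.44% of all windows, and TTCNNNGAA, the core of the STAT site, had none either and occurred in 8.30%. The absence says only that these exact letters are not in these windows.

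Sp100 was at 11.5, 12.5, 12.2, 16.7 and 10.1 FPKM in the 5 male WT libraries and at 13.5, 11.9, 10.1 and 13.3 in the 4 female WT libraries. In male Het mice its level ranged from 20.7 to 31.7 FPKM, with a median of 26.5. In male Homo mice it was at 27.0, 22.1, 29.6, 20.0 and 21.9 FPKM. Every male Cre-positive library lay above every male WT library. In female Het mice Sp100 was at 24.5, 32.9, 23.6, 30.1 and 23.8 FPKM, and in female Homo mice at 23.4, 22.8, 22.2, 24.6 and 22.2. The lowest of the 21 Cre-positive libraries (20.0) thus stood above the highest of the 9 WT libraries (16.7), which is the pattern that Sp100 was chosen for.

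From the lowest to the highest group mean, Sp100 measured 12.2 ± 1.55 FPKM (SD, n = 4) for female WT, 12.6 ± 2.46 (SD, n = 5) for male WT, 23.0 ± 0.993 (SD, n = 5) for female Homo, 24.1 ± 4.01 (SD, n = 5) for male Homo, 26.3 ± 4.88 (SD, n = 6) for male Het and 27.0 ± 4.24 (SD, n = 5) for female Het mice. In this order of means, only the step from male WT to female Homo mice was free of overlap between neighbouring groups. The fold change averaged over the 4 Cre-positive groups was 1.96, and it was 1.81 in male Homo, 1.98 in male Het, 1.88 in female Homo and 2.18 in female Het mice. The library labelled Het-F-0206, with the lowest Cx3cr1, had the highest Sp100 level of all (32.9), and Het-M-0199 had 22.1.

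**Figure D1:**
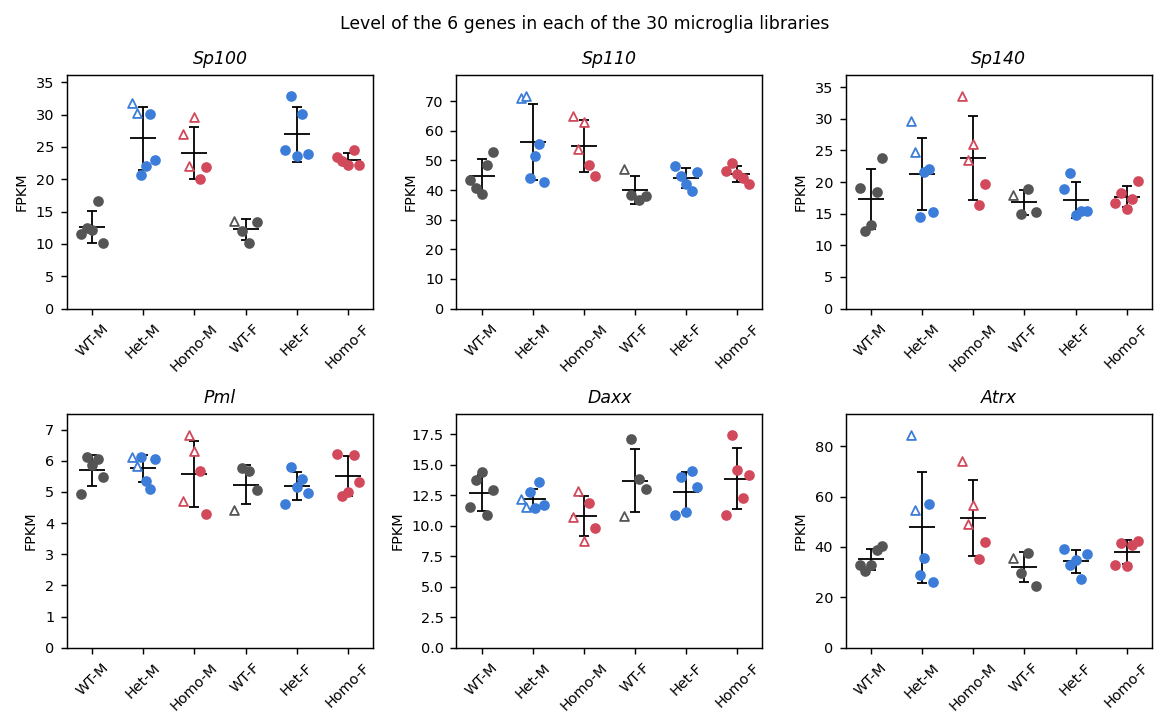
FPKM (vertical axes, each from 0) of the 6 genes in each library by group; circles are late and open triangles early mouse numbers, and the horizontal mark and bar give the mean ± SD of 4 to 6 libraries. The 9 WT libraries sit at or below 16.7 for Sp100 and the 21 Cre-positive libraries at or above 20.0, whereas for the other 5 genes the groups overlap.

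The comparison of Homo with Het mice, both with Cre, was not used in choosing Sp100. Sp100 was lower in Homo than in Het mice by a log2 fold change of -0.13 in males (95% interval -0.36 to 0.11, adjusted p = 0.998 by limma) and of -0.21 in females (95% interval -0.46 to 0.03, adjusted p = 1), so that neither difference passed the test. Het-F-0206 and Het-M-0199, both with Bin1 in the Homo range, counted as Het here. Without Het-F-0206 the female log2 fold change of Sp100 was -0.14. None of the 6 genes was called between Homo and Het mice in either sex, against 0% of all genes in males and 0.0118% (2 genes) in females. For these 6 genes, 0 had an unadjusted p below 0.05 in both sexes, and their log2 fold changes lay between -0.20 and 0.17 in males and between -0.21 and 0.15 in females.

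Among the other 5 genes, 0 were called in Cre-positive against WT mice, a contrast that called 1.44% of all genes (243 of 16897), and 2 reached an unadjusted p below 0.05. In male Homo against WT mice, 0 of the 5 were called, against 2.82% of all genes, and 4 reached an unadjusted p below 0.05. In male Het mice 0 of the 5 were called, against 0.172% of all genes, with 1 at an unadjusted p below 0.05. In female Homo and female Het mice 0 of the 5 were called, against 0.071% and 0.136% of all genes, with 0 at an unadjusted p below 0.05. The share of all genes at an unadjusted p below 0.05 was 14.5% for Cre-positive mice, 22.5% for male Homo, 14.2% for male Het, 3.49% for female Homo and 3.95% for female Het mice. The comparisons of a sex share its WT libraries, and the 5 genes are not independent of each other. The summed level of the neutrophil markers moved with these comparisons, with a median of 53.9 FPKM in WT (6.70 to 343) and 11.1 in Cre-positive libraries (0 to 188). In males the median was 69.6 in WT, 11.7 in Het and 0.575 in Homo libraries, and in females it was 40.9, 23.1 and 11.1. The median of the 5 border macrophage markers was 22.4 FPKM in WT and 12.7 in Cre-positive libraries. Their part in any difference from WT was not tested, and in bulk libraries fewer cells of a type and less RNA per cell cannot be told apart.

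Libraries were also compared for overlap. Between male Homo and WT mice, all 5 genes overlapped, and 3.94% of all genes did not. Between male Het and WT mice all 5 overlapped, against 0.84% of genes without overlap. In females all 5 overlapped in both comparisons, against 2.31% of genes without overlap for Homo and 2.21% for Het mice.

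Sp110 is known for its part in the control of intracellular bacteria. Its FPKM was 43.4, 40.5, 38.8, 48.5 and 52.9 in male WT libraries and 47.1, 38.3, 36.5 and 37.9 in female WT libraries. In male Homo libraries it was 64.9, 53.7, 63.0, 48.4 and 44.8, in male Het libraries from 42.8 to 71.8 (median 53.5). Female Het libraries lay between 39.6 and 48.2 FPKM and female Homo libraries between 42.1 and 49.0. The 3 highest male Het and the 3 highest male Homo libraries stood above all WT libraries, and the rest overlapped with them.

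Averaged over the Cre-positive groups, Sp110 was 0.19 higher on the log2 scale (standard error, SE, 0.062, 95% interval 0.06 to 0.32), with an adjusted p of 0.128 by limma. The estimate was positive in each of the 4 groups, from 0.14 in female Het to 0.23 in male Het mice. With array weights, which give libraries of high spread less influence, Sp110 was called (log2 fold change 0.19, adjusted p = 0.0357 by limma), in a fit that called 539 genes. With late mouse numbers alone its log2 fold change was 0.15. A share of 42.3% of the 50-base stretches in Sp110 transcripts is also found in transcripts of other genes, most of all in those of the pseudogene Gm16026 (26.7%), so its level depends on how RSEM divided such fragments.

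Sp140, a chromatin reader that is known to hold down lineage-foreign and interferon genes in macrophages, was at 19.0, 12.2, 13.2, 18.3 and 23.8 FPKM in male WT libraries and at 33.6, 23.4, 26.1, 16.3 and 19.7 in male Homo libraries. In male Het libraries it ranged from 14.5 to 29.7 FPKM, in female WT from 14.9 to 19.0, in female Het from 14.7 to 21.4 and in female Homo from 15.8 to 20.1. Its log2 fold change was 0.17 over the Cre-positive groups (SE 0.10, adjusted p = 0.432 by limma) and 0.38 in male Homo mice (SE 0.16, adjusted p = 0.163). Over the Cre-positive groups it was 0.08 with late mouse numbers alone. In females the estimates were 0.07 for Homo and 0.02 for Het mice. A share of 57.3% of the 50-base stretches of Sp140 transcripts occurs in those of other genes, with 20.6% in the antisense gene Gm17017. This is the highest share among the 6 genes.

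Pml, the scaffold of the bodies, had the lowest level of the 6 genes, with 4.30 to 6.82 FPKM over all 30 libraries. Its group means lay between 5.19 ± 0.453 (SD, n = 5) in female Het and 5.76 ± 0.434 (SD, n = 6) in male Het mice. The log2 fold change over the Cre-positive groups was -0.03 (95% interval -0.20 to 0.14, adjusted p = 0.888 by limma), and without scaling between libraries it was 0.01. As a fold change, the 95% interval over the Cre-positive groups runs from 0.869 to 1.10 times the WT level. Intervals of single groups were wider, with 0.759 to 1.10 in male Homo and 0.862 to 1.28 in female Homo mice.

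Daxx, the H3.3 chaperone that binds SUMO, ranged from 8.72 to 17.4 FPKM. Male Homo libraries were at 10.7, 12.8, 8.72, 11.9 and 9.80 FPKM, and male WT libraries at 11.6, 13.7, 14.4, 10.9 and 13.0. In this comparison the log2 fold change was -0.32 (SE 0.14, adjusted p = 0.172 by limma). In female Homo mice the estimate was 0.01 (SE 0.15), and over the Cre-positive groups it was -0.13 (95% interval -0.32 to 0.05, adjusted p = 0.493 by limma). With 1 library left out, the latter ran from -0.19 without WT-F-0122 to -0.07 without WT-F-0192.

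Atrx, the chromatin remodeller that works with DAXX and is encoded on the X chromosome, had the widest range, from 24.5 to 84.3 FPKM. It was at 32.9, 30.6, 32.8, 38.9 and 40.4 FPKM in male WT libraries and at 74.2, 49.0, 56.8, 35.2 and 41.8 in male Homo libraries. In male Het libraries it ranged from 26.2 to 84.3 FPKM, with a median of 45.1. Female libraries lay between 24.5 and 37.6 in WT, 27.2 and 39.0 in Het and 32.6 and 42.3 in Homo mice. The log2 fold change was 0.43 in male Homo mice (SE 0.19, adjusted p = 0.178 by limma) and 0.26 over the Cre-positive groups (SE 0.12, adjusted p = 0.309), and the latter was 0.15 with late mouse numbers alone.

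**Figure D2:**
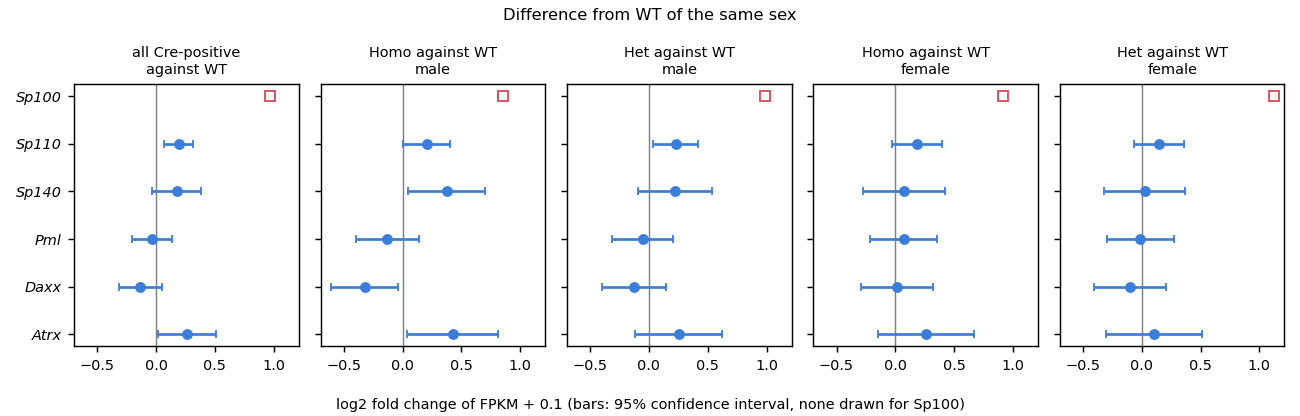
Log2 fold change (horizontal axes) of the 6 genes in Cre-positive mice together and in each Cre-positive group against WT of the same sex, with 95% confidence intervals for the 5 genes tested; Sp100 is drawn as an open square without an interval because it was chosen on these comparisons. Sp100 sits between 0.86 and 1.13 in every panel, and the other genes between -0.32 and 0.43.

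Among male Cre-positive mice, Sp100, Sp110, Sp140 and Atrx were on average higher in libraries with early mouse numbers. In male Homo mice, Sp110 was between 53.7 and 64.9 FPKM in the 3 early libraries and at 48.4 and 44.8 in the 2 late ones. In male Het mice it was at 71.1 and 71.8 in the 2 early libraries and between 42.8 and 55.5 in the 4 late ones. Early and late libraries did not overlap in either group. Atrx was between 49.0 and 74.2 FPKM in early and at 35.2 and 41.8 in late male Homo libraries, and at 84.3 and 54.6 in early against 26.2 to 57.1 in late male Het libraries, where 1 late library lay between the early ones. Sp140 was separated in both groups, with 23.4 to 33.6 against 16.3 and 19.7 FPKM in male Homo mice. In male Het mice it was at 24.7 and 29.7 against 14.5 to 22.1. In FPKM, which are not scaled between libraries, Sp100 was separated in both groups too, with 22.1 to 29.6 against 20.0 and 21.9 in male Homo mice. The nearest early and late libraries there were Homo-M-0097 (22.1, scale factor 1.0331) and Homo-M-0190 (21.9, scale factor 0.9985). Division by these factors puts the early library below the late one, so after scaling Sp100 overlapped in male Homo mice. In male Het mice Sp100 was at 30.3 and 31.7 in early against 20.7 to 30.0 in late libraries. The share of all genes separated in this way was not counted.

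In the fit with number range as a covariate, early libraries exceeded late ones on the log2 scale, with 0.32 for Sp110 (SE 0.061, adjusted p = 0.000763 by limma), 0.54 for Atrx (SE 0.13, adjusted p = 0.00389) and 0.37 for Sp140 (SE 0.12, adjusted p = 0.0287). The other members were not called, with 0.19 for Sp100 (adjusted p = 0.152), -0.25 for Daxx (adjusted p = 0.107) and -0.07 for Pml (adjusted p = 0.686). The range of numbers called 24.6% of all genes, 4161 in number, against 3 of the 6 genes here. With this covariate, the log2 fold change in male Homo against WT mice was 0.02 for Sp110, 0.16 for Sp140, 0.10 for Atrx and -0.17 for Daxx, and that of Sp100 was 0.74. With late mouse numbers alone, which leaves 2 male Homo libraries, the values were 0.06, 0.09, 0.13 and -0.23, and 0.74 for Sp100. Within the early range this comparison could not be made, since it holds 0 male WT libraries. The summed level of the 9 microglial markers had a median of 21720 FPKM in early and 25476 in late libraries, that of the 4 astrocyte markers 10.3 and 2.61, that of the 4 oligodendrocyte markers 49.5 and 31.5, and that of the 6 neutrophil markers 47.3 and 15.0. Their part in the levels of Sp110, Sp140 and Atrx was not tested.

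**Figure D3:**
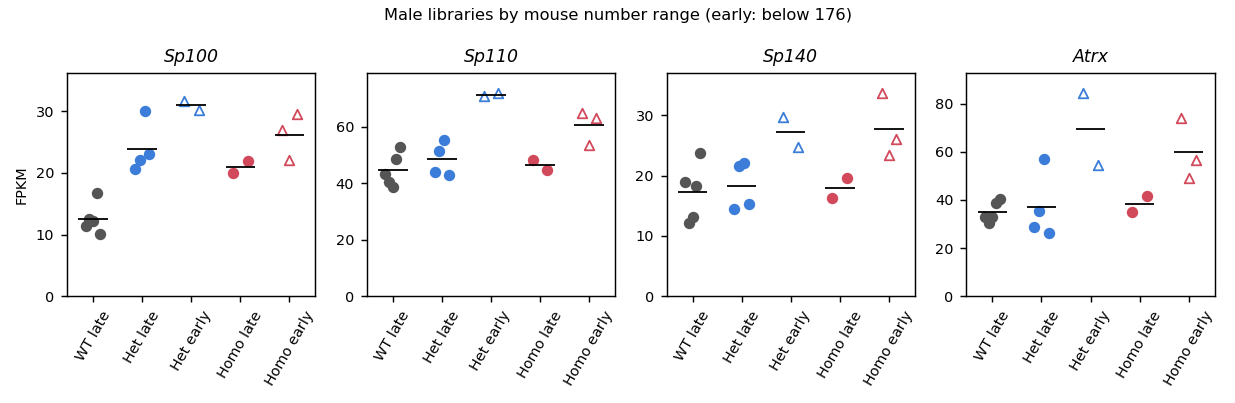
FPKM (vertical axes, from 0) of Sp100, Sp110, Sp140 and Atrx in male libraries split by genotype and mouse number range, with a line at each mean. Late Het and Homo libraries of Sp110, Sp140 and Atrx overlap with WT, and those of Sp100 lie from 20.0 upwards, above the highest male WT library at 16.7.

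Within groups, the levels of Sp110, Sp140 and Atrx ran together. After group means were subtracted, the correlation across the 30 libraries was 0.66 between Sp110 and Sp140, 0.66 between Sp110 and Atrx and 0.72 between Sp140 and Atrx. Among the 24 late libraries alone it was 0.52, 0.33 and 0.53. Sp100 followed them little, with 0.27 for Sp110, 0.15 for Sp140 and 0.18 for Atrx over all libraries, and -0.15, -0.10 and -0.15 over the late ones. Daxx and Pml ran with the opposite sign to Sp110, at -0.46 and -0.34. These correlations are descriptions, since the libraries share number range and depth, and Sp110 and Sp140 share sequence with other transcripts of the cluster.

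Between the sexes, 0 of the 6 genes were called, against 1.24% of all genes. An unadjusted p below 0.05 was reached by 3 of the 6, and by 26.8% of all genes. Females minus males, the log2 values were -0.19 for Sp110 (SE 0.057, adjusted p = 0.0664 by limma), -0.25 for Atrx (SE 0.11, adjusted p = 0.149) and 0.22 for Daxx (SE 0.082, adjusted p = 0.0939). Of the 6 early libraries, 5 were male, and with number range as a covariate the values were -0.12 for Sp110, -0.12 for Atrx and 0.17 for Daxx. Sp110 was called when 1 of 5 libraries was left out (without Het-M-0197, Het-M-0210, Homo-M-0189, Homo-M-0190 or WT-F-0122), where its log2 fold change was between -0.21 and -0.20. The number of all genes called moved as well, from 210 with all libraries to 1950 without Het-M-0197. Sp100 differed by 0.04 between the sexes (adjusted p = 0.712). The interaction of sex and genotype was called for 0 of the 5 genes other than Sp100 in Homo and 0 in Het mice. For these genes 0 had an unadjusted p below 0.05, against 9.29% of all genes for Homo and 4.53% for Het mice. In both interactions 0% of all genes were called. For Sp100 the rise in males minus that in females was -0.06 for Homo and -0.14 for Het mice. These 2 values are built from the comparisons that Sp100 was chosen on, so they are a description and no test.

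Of 50 other genes of nuclear bodies, among them SUMO enzymes, H3.3 chaperones and partners of PML, 49 were tested. In Cre-positive against WT mice, 0 rose and 0 fell, 2 had an unadjusted p below 0.05, and the median log2 fold change was -0.01, beside 0.01 for all genes. In male Homo mice 0 were called as well, with 10 at an unadjusted p below 0.05 (22.5% of all genes were) and a median of 0.01, beside 0.03. The largest differences over the Cre-positive groups were those of Crebbp, Ets1 and Skil, and none of them was called. Crebbp, a histone acetyltransferase, stood at -0.23 on the log2 scale (SE 0.12, adjusted p = 0.393 by limma), at -0.12 without WT-M-0258 and at -0.31 without WT-M-0202. Ets1, a transcription factor that SP100 binds, stood at -0.21 (SE 0.088, adjusted p = 0.276). Skil, a corepressor of SMAD signalling, stood at 0.17 (SE 0.078, adjusted p = 0.310). The range of mouse numbers called 12 of the 49 genes (24.5%), 7 higher and 5 lower in early libraries.

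Because Sp100 and Pml are inducible by interferon, 50 interferon-stimulated genes were also listed, of which 49 were tested. Over the Cre-positive groups 4 of them rose, 0 fell and 45 were not called, a share of 8.16% beside 1.44% of all genes, and the median log2 fold change was 0.07 beside 0.01. The 4 were Ifi44, Oas1g, Oas1a and Ifi204. Ifi44, which encodes an interferon-induced cytoplasmic protein, measured 0.143 ± 0.108 FPKM (SD, n = 5) for male WT, 0.631 ± 0.261 (SD, n = 5) for male Homo, 0.136 ± 0.152 (SD, n = 4) for female WT and 1.12 ± 0.686 (SD, n = 5) for female Het mice. Its log2 fold change over the Cre-positive groups was 1.83 (SE 0.29, adjusted p = 0.000463 by limma), at a level so low that a pseudocount of 1 gave 0.59 and one of 0.01 gave 2.78.

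Oas1g and Oas1a are close paralogs of the OAS family, sensors of double-stranded RNA, between which reads can be divided. Oas1g rose by 1.63 on the log2 scale (SE 0.34, adjusted p = 0.00802 by limma; 0.79 with a pseudocount of 1 and 2.15 with 0.01) and Oas1a by 0.64 (SE 0.15, adjusted p = 0.0209). Ifi204, a DNA sensor with close paralogs of its own, measured 3.75 ± 0.821 FPKM (SD, n = 4) for female WT and 7.88 ± 2.91 (SD, n = 5) for female Het mice, and its log2 fold change over the Cre-positive groups was 0.65 (SE 0.17, adjusted p = 0.0482). Ifi204 was called in only 3 of 10 other settings and in 7 of 30 fits without a library, and with late mouse numbers alone it was at 0.57 (adjusted p = 0.194 by limma). Oas1a was at 0.61 with late mouse numbers alone (adjusted p = 0.1004), and Ifi44 and Oas1g were called in all of these fits that tested them. Within single groups, the counts of the list were smaller. In male Homo mice 0 rose and 2 fell (4.08%, beside 2.82% of all genes), with a median of -0.11 beside 0.03. In male Het mice 0 were called and 10 had an unadjusted p below 0.05, with a median of -0.04 beside 0.01. In female Homo mice 0 were called while 8 had an unadjusted p below 0.05, and the median was 0.22 beside 0.000992. In female Het mice 1 rose (2.04%, beside 0.136% of all genes), and the median was 0.25 beside 0 after rounding. The count over the Cre-positive groups fell from 4 to 2 without WT-F-0192 or without WT-M-0178.

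**Figure D4:**
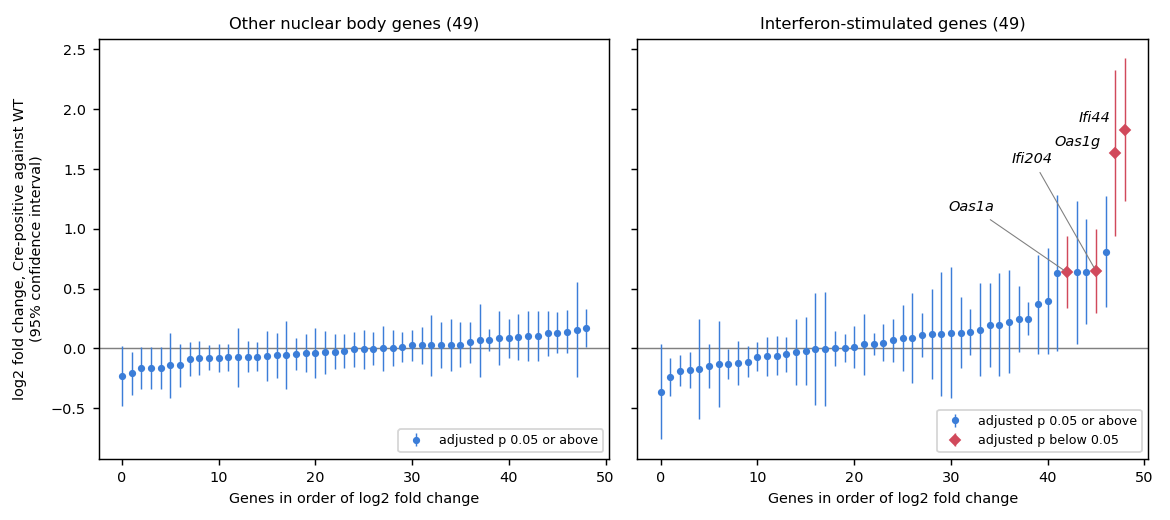
Log2 fold change (vertical axis, with 95% confidence intervals) over the Cre-positive groups for the 49 tested genes of each list, in rising order along the horizontal axis. Points of the nuclear body list lie between -0.23 and 0.17 and none passed an adjusted p of 0.05, and 4 interferon-stimulated genes (diamonds), led by Ifi44 at 1.83, did.

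Around Sp100, 78 other genes of the table start within 1 Mb, and 34 of them, 18 protein-coding, were tested. Over the Cre-positive groups 0 of the 34 were called, 3 had an unadjusted p below 0.05, and the median log2 fold change was -0.02. The starts of Sp110 and Sp140, each taken on the strand of the gene, lie -51.2 and -49.6 kb from that of Sp100. The antisense gene Gm10552 (1.14, adjusted p = 0.242 by limma), the small nucleolar RNA Snora75 (0.89, adjusted p = 0.399) and the microRNA gene mmu-mir-3535 (-0.77, adjusted p = 0.505) had the largest log2 fold changes, at mean levels between 0.196 and 0.272 FPKM. The smallest p, singled out after its value was seen, was that of B3gnt7, a glycosyltransferase gene 653 kb away, with 1.81 ± 0.354 FPKM (SD, n = 5) for male WT and 2.47 ± 0.364 (SD, n = 5) for male Homo mice. Over the Cre-positive groups it was 0.58 higher on the log2 scale (SE 0.16, adjusted p = 0.0622 by limma). B3gnt7 was called with array weights (adjusted p = 0.0203 by limma) and without scaling (adjusted p = 0.0282). Gm17017, which overlaps the start of Sp100, stood at 0.31 on the log2 scale (SE 0.24, adjusted p = 0.564).

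**Figure D5:**
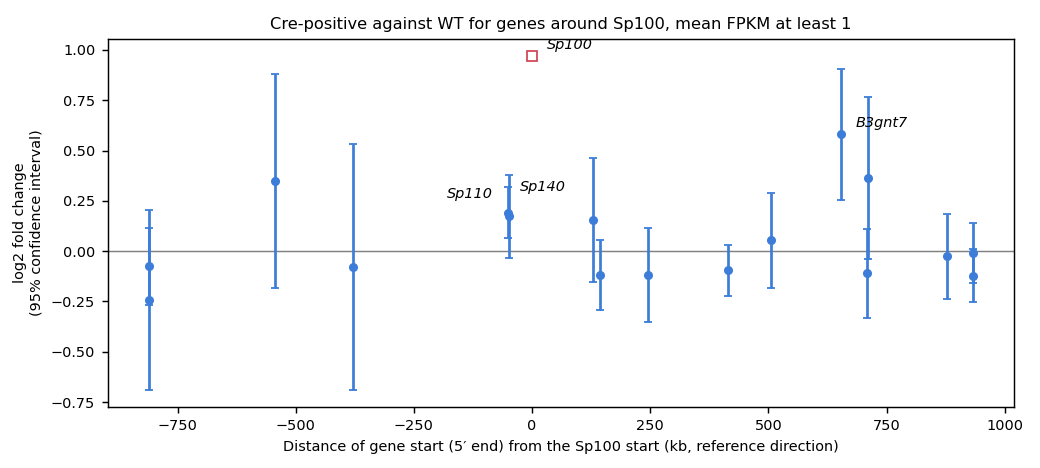
Log2 fold change over the Cre-positive groups (vertical axis, 95% confidence intervals) against the distance of the gene start, on the strand of the gene, from that of Sp100 in kb, for neighbours with a mean FPKM of at least 1. Sp100, drawn without an interval, is at 0.97, and Sp110 and Sp140, both on its lower-coordinate side, are at 0.19 and 0.17.

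The genes whose pattern was most like that of Sp100 over the 30 libraries, by the correlation of log2 levels, were Gm4951 (r = 0.90), Pdcd1 (0.89), Chst2 (0.88), Hcar2 (0.86) and Cst7 (0.85), among 16896 genes. In this order Sp110 held rank 574, Atrx rank 2059, Sp140 rank 2955, Pml rank 10542 and Daxx rank 13974. After group means were subtracted, the 5 most alike were C920009B18Rik (0.82), Zfp317 (0.79), Poglut1 (0.77), Ifi204 (0.76) and Crbn (0.74), and Sp110 held rank 3710. The first ranking rests largely on the step between WT and Cre-positive libraries that Sp100 was chosen for, and both are descriptions over libraries that share number range and depth.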

How the data were processed

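The 6 genes and all gene lists were chosen with earlier results of these data known. The authors aligned reads to mm10, estimated gene abundance with RSEM and deposited FPKM for 30 libraries. DESeq2 is also named in the processing notes of the submitters and was not run here. The table held 6 value columns that match no listed sample, which were not used. FPKM were scaled by median-of-ratios factors (0.939 to 1.15, from 11436 genes averaging 1 FPKM or more), 0.1 was added, and log2 values of the 16897 genes averaging 0.1 FPKM or more were fitted in all 6 groups by limma 3.58.1 in R 4.3.3 with an intensity trend. The contrast of Cre-positive with WT mice is the mean of 4 differences from WT of the same sex. P-values measure the spread between mice, as separately numbered. On data simulated for male Homo against WT mice, 69% of 200 genes changed 2.5-fold were recovered among 16897, with 4 false calls. The simulated noise was independent between libraries and held no difference between number ranges. It therefore cannot show how many calls in these data are false. Shared 50-base stretches were counted in GENCODE M21 transcripts on both strands (Python 3.11.15). Named genes were the 6 genes, Bin1, Cx3cr1, from each list up to 5 called over the Cre-positive groups or else the 3 of largest absolute log2 fold change, and the 5 most correlated with Sp100. Each result was also computed with changed pseudocounts, filters, scalings or array weights, with mouse number range, with a fold change threshold of 1.5, with the compared groups alone, and with libraries left out.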

Additional observations from a re-analysis of the deposited data

Results flagged for a closer look

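In female WT mice, the Sp110 level of WT-F-0122 (47.1 FPKM) stood far from the other 3 libraries, which lay between 36.5 and 38.3. It is the female WT library with an early mouse number. One of the 36 groups of libraries checked for the 6 genes stood out in this way, where chance gives about 5%. No interaction of sex and genotype passed the test for any of the 5 genes other than Sp100.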

How the results depend on the processing

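FPKM without read totals limit the precision that can be stated for single values. The number of all genes called depended on the setting, from 129 to 539 over the Cre-positive groups (243 as reported) and from 9, with late mouse numbers alone, to 1379, without Homo-M-0189, in male Homo mice (477 as reported). It ran from 4 to 64 in male Het (29), from 7 to 40 in female Homo (12), from 9 to 74 in female Het mice (23) and from 13 to 1950 between the sexes (210), and from 0 to 2 in the Homo against Het comparisons and 0 to 1 in the interactions. With array weights, the number of the 5 other genes called over the Cre-positive groups went from 0 to 1 (Sp110), and that of Sp100's neighbours from 0 to 2, and without scaling between libraries the neighbours went to 1. Leaving out 1 library at a time gave 0 to 1 called genes between the sexes, 0 to 1 neighbours (1 without Het-F-0257 or Het-M-0100), and 2 to 5 interferon-stimulated genes. In all, 959 log2 fold changes were recomputed. They cover the 5 other genes against WT, Sp100 alone in Homo against Het mice and in the interactions, and all 6 genes between the sexes. Of the 959, 924 kept their direction and side of the threshold, 6 passed it anew and 29 turned sign, and the cause was not tested. Without scaling, Pml turned to 0.0092 over the Cre-positive groups and to 0.019 in male Het mice, and Sp100 to 0.022 in the interaction for Homo mice and to -0.013 between the sexes. With late mouse numbers alone, Atrx turned to -0.0075 in male Het mice, Pml to -0.020 and Daxx to -0.11 in female Homo mice, and Pml to 0.011 between the sexes. Daxx in female Homo mice was also negative with array weights (-0.0045) and the number range covariate (-0.049). Quantile normalization turned Pml to 0.027 between the sexes, and leaving out Het-F-0206 and Het-M-0199 turned Sp140 to -0.055 in female Het mice. With 1 library left out, female Homo values ran from -0.020 to 0.13 for Pml and from -0.11 to 0.13 for Daxx. Female Het values ran from -0.055 to 0.084 for Sp140, -0.10 to 0.044 for Pml, -0.22 to 0.021 for Daxx and -0.0074 to 0.19 for Atrx. The Homo interaction of Sp100 ran from -0.14 to 0.038. Mouse numbers are unique to each mouse. The labels do not give litters, so mice could not be paired by litter, and the p-values treat littermates as independent.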
